A study of Homo sapiens with 6 samples.

Results

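Transcript levels of 31 genes for integrin subunits and focal adhesion proteins were compared between p85β KR-AA mutant cells and the DLD1 parental cells they derive from. The genes were picked by symbol as a family, with no threshold on their values, and all 31 were found among the 58884 genes of the deposited table. They encode 13 integrin α subunits, 8 integrin β subunits and 10 proteins that join integrins to actin. DLD1 is a colorectal cancer cell line that carries a helical-domain mutant allele of PIK3CA, and both groups share that background. In the mutant cells, K477A and R478A were knocked with CRISPR/Cas9 into PIK3R2 on both alleles, and this gene encodes the p85β regulatory subunit of PI 3-kinase. The study describes mutant cells as selected clones, and the labels of the libraries do not name the clone. RNA was sequenced in 3 libraries per group, and nothing in the labels says that the libraries came from separate cultures, so p-values measure the spread between these libraries.

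Integrins are paired receptors of an α and a β subunit that span the cell membrane and hold cells to the extracellular matrix. The α subunit largely sets the ligand, so the family is grouped into collagen-binding, laminin-binding and RGD-binding receptors, the last named for the arginine-glycine-aspartate motif in fibronectin and vitronectin. Talin and kindlin bind the β tail and switch the receptor on, and vinculin, paxillin, zyxin, the ILK-parvin complex and focal adhesion kinase build the link to actin and signal from it. In colon epithelium, α6β4 anchors cells to the basement membrane in hemidesmosomes, and α3β1 and α2β1 hold laminin and collagen.

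The total count per library lay between 20301396 and 26712816, and 1 count was worth 0.0273 to 0.0728 CPM (counts scaled to a common library size, here by the trimmed mean of M values, TMM). PIK3R2 was at 34.8, 12.3 and 19.3 CPM in the parental libraries and at 13.7, 16.6 and 4.54 CPM in the mutant libraries, and counts per gene do not show the 2 codons that were changed. Among 12 colon epithelial markers, 10 were above 1 CPM in every library of both groups, but their summed level was 57866 to 79999 CPM in parental cells and 8933 to 10456 CPM in mutant cells. Of the 11 that could be tested, 7 were down-regulated (4 with library totals, 2 in a fit with offsets that level gene length and GC content), beside 17.6% of all genes tested. CEACAM5 and CDH1 were up-regulated (2 markers with library totals, 1 with the offsets, where CDH1 was under 3-fold). A list of 14 mesenchymal markers summed to 4.08 to 5.98 CPM in parental and 1719 to 1856 CPM in mutant cells, where nearly all of it was VIM. Of these, 6 of the 8 that could be tested were up-regulated, beside 28.6% of all genes tested. Of the 14, 2 were above 1 CPM in every parental and 7 in every mutant library. In every parental library 9 had 3 counts or fewer, and in every mutant library 6, among them COL1A2 and PDGFRA. Leukocyte markers summed to 54.8 to 67.6 CPM in parental and 59.9 to 69.9 CPM in mutant cells with at most 3 counts of PTPRC per library. Within that list NCAM1 was up-regulated, from at most 3 counts in each parental library to 23.4 ± 0.59 CPM in mutant cells (SD, n = 3). NCAM1, CEACAM5 and some of the mesenchymal markers passed the count filter through the mutant libraries, where they are high. Those calls are a description and add no support. Of the 3 leukocyte markers that could be tested, 1 passed the p threshold with a lower level. Endothelial markers summed to 1.38 to 3.14 and 1.84 to 2.12 CPM. The part of these marker differences in the results for the integrin genes was not tested, and in bulk RNA fewer cells of a type cannot be told apart from less RNA per cell.

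Of the 31 genes, 28 had enough counts to be tested, and ITGA4, ITGA8 and ITGA11 did not. A gene was called where it differed 3-fold or more with an adjusted p under 0.01 (edgeR quasi-likelihood F test, Benjamini-Hochberg adjustment over the 16059 genes tested). By that rule 11 genes were up-regulated in p85β KR-AA cells, namely ITGA1, ITGA2, ITGA6, ITGAV, ITGB1, ITGB3, ITGB6, ITGB8, FERMT2, VCL and PTK2. Over all genes tested, 28.6% were up-regulated and 17.6% down-regulated by the same rule. The edgeR test called 0 of the 28 genes down-regulated. At an unadjusted p under 0.05 (edgeR), 5 of the 28 were lower, beside 5804 of the 16059 genes tested. DESeq2 called 1 of the 28 genes down and 9 up, beside 3094 and 4202 of all genes tested. ITGA9 and FERMT1 passed the p threshold with a rise under 3-fold. This makes 13 of the 28 genes higher at any fold, beside 41.6% of all genes tested. ITGA3, ITGA7, ZYX and ILK passed it with a decrease under 3-fold, beside 32.7% of all genes that were lower at any fold, and of these ITGA3 turned to a log2 change of 0.10 when libraries were scaled by their totals. The other 11 did not pass the p threshold. ITGA1, ITGB3, ITGB6 and ITGB8 had fewer than 10 counts in at least 1 parental library and passed the count filter through the mutant libraries, where they are high, so their calls are a description and add no support. In 14 of the 28 genes every mutant library lay above every parental library, which held for 47% of all genes tested, and in 5 every mutant library lay below, which held for 36.5%.

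**Figure D1:**
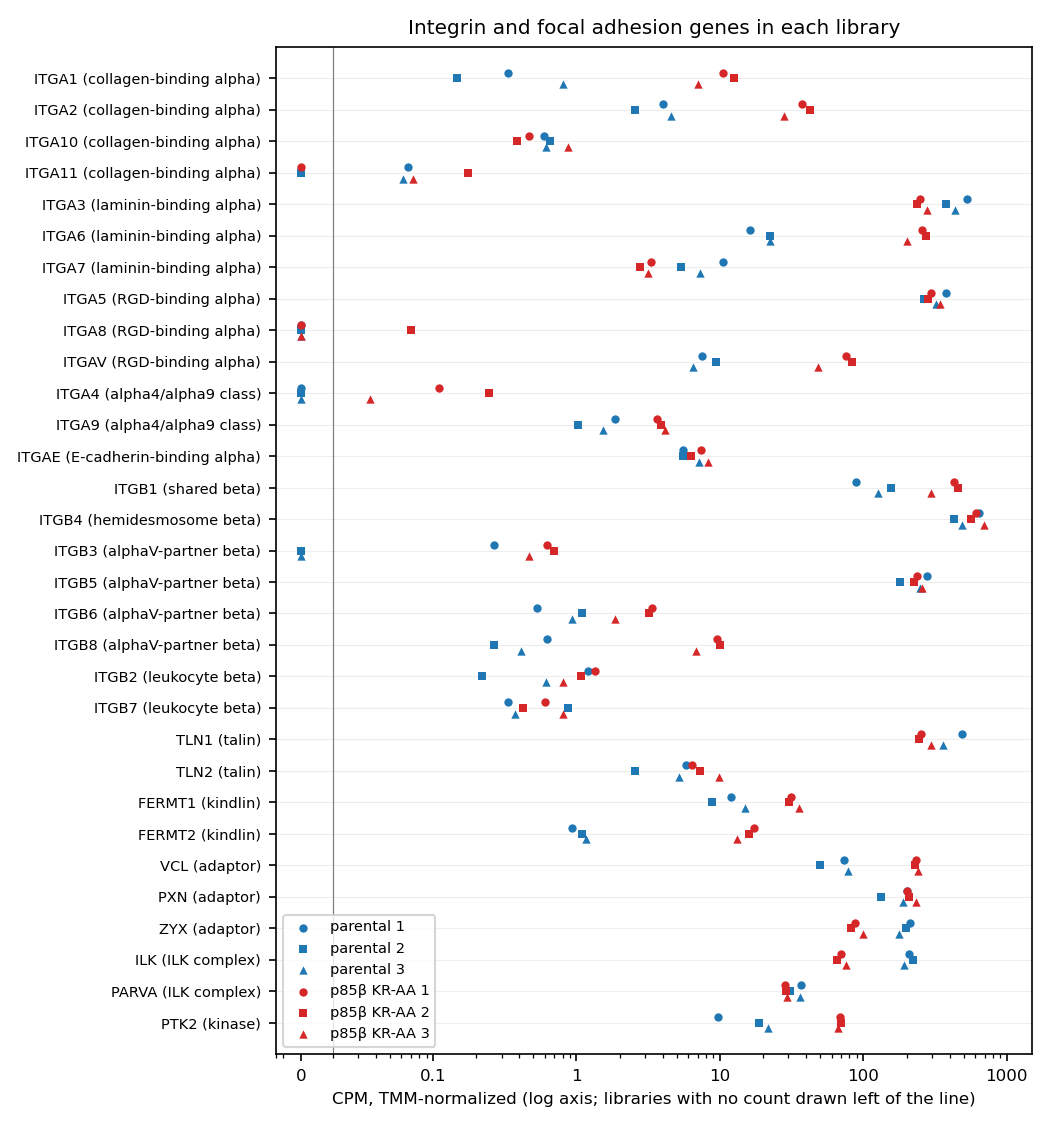
TMM-normalized CPM of the 31 genes in each library on a log axis, with libraries without a count drawn left of the vertical line. Parental libraries are blue and mutant libraries red, and circles, squares and triangles stand for replicates 1, 2 and 3. ITGA1, ITGA2, ITGA6, ITGAV, ITGB8 and FERMT2 show a wide gap between the groups, and ITGA5, ITGB4 and ITGB5 overlap. CPM is not divided by gene length, so rows should not be ranked against each other.

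Of the 4 genes for collagen-binding α subunits, ITGA1 and ITGA2 rose from a low parental level, ITGA10 did not pass the test and ITGA11 was not tested. ITGA2 encodes α2, the main collagen receptor subunit of epithelia. It was at 3.99, 2.55 and 4.57 CPM in the parental libraries and at 37.4, 42.1 and 28.1 CPM in the mutant libraries. The groups were far apart, at a log2 fold change of 3.27 ± 0.24 (SE, standard error derived from the F statistic; n = 3 per group; edgeR adjusted p = 6.44e-08). ITGA1 encodes α1, which prefers basement membrane collagen, and lies beside ITGA2 on chromosome 5 (ITGA1 at 52083750 to 52255039 and ITGA2 at 52285170 to 52390609 on the plus strand, in the GRCh37 annotation). It was at 0.335, 0.146 and 0.808 CPM in parental and 10.5, 12.5 and 7.01 CPM in mutant libraries. All parental libraries were thus under 1 CPM, and the log2 fold change was 4.49 ± 0.41 (SE; edgeR adjusted p = 4.71e-07). ITGA1 shares bases on the same strand with PELO, a ribosome rescue factor gene with mean counts of 599.6 in parental and 1275 in mutant libraries, so reads could be split between them. ITGA10 stayed at 0.598 to 0.655 CPM in parental and 0.383 to 0.874 CPM in mutant libraries, with ranges that overlapped (log2 change -0.13, 95% interval -1.07 to 0.80), and scaling by totals turned the sign. ITGA11 had at most 1 count in a parental and 5 in a mutant library.

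Among the laminin-binding α subunits, ITGA6 and ITGA3 moved in opposite directions under TMM scaling. ITGA6 encodes α6, which pairs with β4 in hemidesmosomes and with β1 elsewhere, and lies on chromosome 2 at 173292082 to 173371187 (GRCh37 annotation, plus strand). It was at 16.3, 22.3 and 22.2 CPM in the parental libraries and at 254.8, 273.04 and 202.4 CPM in the mutant libraries. The lowest mutant library was thus several times above the highest parental one, and the log2 fold change was 3.59 ± 0.18 (SE; edgeR adjusted p = 5.36e-09). ITGA3 encodes α3, the partner of β1 in adhesion to laminin-332. It was at 529.2, 377.4 and 438.4 CPM in parental and 249.8, 235.2 and 276.8 CPM in mutant libraries, a log2 change of -0.82 ± 0.14 (SE; edgeR adjusted p = 1.75e-04) that was 0.10 with library totals and 0.31 with offsets that level gene length and GC content in each library. ITGA7, a laminin receptor subunit best known from muscle, was at 10.5, 5.32 and 7.22 CPM in parental and 3.30, 2.75 and 3.13 CPM in mutant libraries (log2 change -1.32 ± 0.26; edgeR adjusted p = 3.92e-04). This did not hold with library totals (-0.41; edgeR adjusted p = 0.186) or with offsets (-0.33; edgeR adjusted p = 0.157). ITGA7 overlaps BLOC1S1 and METTL7B on the other strand, as ITGAE, ITGB4, ITGB7, ZYX and ILK overlap other coding genes, and reads of such pairs cannot be told apart where strand was not kept.

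The ratio of ITGA3 to ITGA6 needs no scaling between libraries. Per base of gene length, ITGA3 was 30.0, 15.7 and 18.3 times ITGA6 in parental replicates 1 to 3, and 0.907, 0.798 and 1.27 times ITGA6 in mutant replicates 1 to 3. The pair went from a large excess of ITGA3 to near equal levels. The ratio is not free of base composition, since ITGA3 has a GC content of 61.3% and ITGA6 of 42.5%, and with the offsets the log2 changes were 0.31 for ITGA3 and 2.47 for ITGA6. As a share of the summed length-normalized level of all α genes, ITGA3 took 58.5% ± 0.70 in parental and 29.9% ± 2.64 in mutant cells, and ITGA6 took 2.95% ± 0.90 and 30.9% ± 4.51 (SD, n = 3). The laminin-binding class as a whole took 62.3% ± 0.58 in parental and 61.2% ± 1.86 in mutant cells, a difference smaller than the spread of the mutant libraries on this scale. As shares of counts, not divided by length, the class took 58.4% ± 0.56 and 53.6% ± 1.02, and the groups did not overlap. With 3 against 3 libraries an exact permutation test cannot go below p = 0.1, so shares are given without a test.

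The RGD-binding subunits divided in the same manner, with a rise of the rarer gene. ITGAV encodes αV, the vitronectin receptor subunit that pairs with several β chains and activates latent TGF-β with some of them. It was at 7.51, 9.39 and 6.48 CPM in parental and 75.9, 82.9 and 48.7 CPM in mutant libraries. No library of one group came near the other, and the log2 fold change was 3.15 ± 0.23 (SE; edgeR adjusted p = 5.40e-08). ITGA5 encodes α5 of the fibronectin receptor α5β1. It was at 377.6, 263.03 and 320.2 CPM in parental and 296.1, 281.6 and 340.7 CPM in mutant libraries, which overlapped (log2 change -0.07, 95% interval -0.39 to 0.26; edgeR adjusted p = 0.693), and scaling by totals gave 0.85. ITGA5 still exceeded ITGAV per base of length in every library, by 46.4 to 83.3 times in parental and by 5.62 to 11.6 times in mutant cells. The RGD class took 36.5% ± 0.54 of the α level in parental and 35.3% ± 2.21 in mutant cells, and the collagen class 0.305% ± 0.064 and 2.43% ± 0.47 (SD, n = 3). ITGA8, a subunit of mesenchymal cells, had 2 counts in 1 mutant library and none elsewhere.

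The remaining α subunits were low. ITGA9, whose product binds tenascin-C and osteopontin, was at 1.86, 1.02 and 1.54 CPM in parental and 3.66, 3.86 and 4.15 CPM in mutant libraries. The groups did not overlap, and the log2 change of 1.39 ± 0.27 (SE; edgeR adjusted p = 4.02e-04) was under the fold threshold and 0.03 with offsets (edgeR adjusted p = 0.938). ITGA4, a subunit of leukocytes that binds VCAM-1 and fibronectin, had no count in the parental libraries and 4, 7 and 1 counts in the mutant libraries, too few for a test or a fold. ITGAE, whose product binds E-cadherin, was at 5.51 to 7.16 CPM in parental and 6.27 to 8.31 CPM in mutant libraries (log2 change 0.26, 95% interval -0.19 to 0.72). Its ligand gene CDH1, chosen here after its values were seen, was up-regulated from 97.3 ± 33.7 to 343.8 ± 20.2 CPM (SD, n = 3). With the offsets the log2 change of CDH1 was 0.96, under 3-fold.

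**Figure D2:**
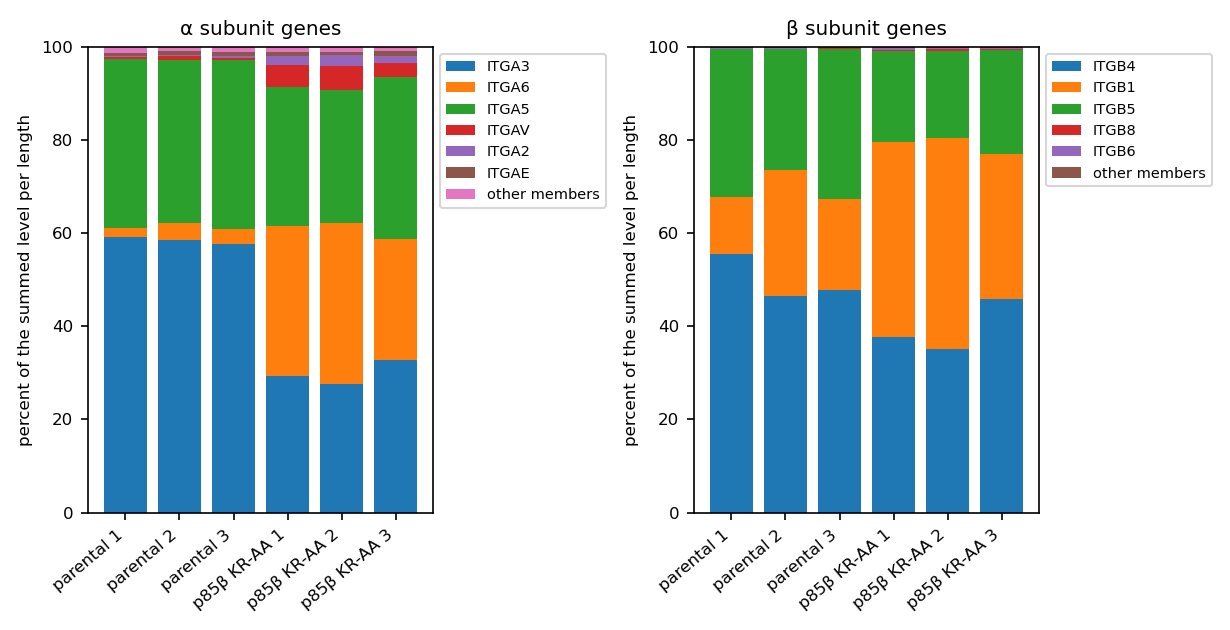
Stacked bars of each gene's percent of the summed CPM per kilobase over the 13 α genes (left) and the 8 β genes (right), 1 bar per library. In the α panel ITGA6 widens from 1.97 to 3.73% in parental libraries to 25.9 to 34.7% in mutant libraries, and in the β panel ITGB1 widens from 12.2 to 27.04% to 31.04 to 45.2%.

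ITGB1 encodes β1, the partner of α1, α2, α3, α5, α6 and αV, and so the chain on which most of these receptors depend. It was at 89.1, 156.9 and 127.1 CPM in parental and 429.4, 459.6 and 297.8 CPM in mutant libraries. Parental replicate 1 was lowest and the groups did not overlap, with a log2 fold change of 1.67 ± 0.21 (SE; edgeR adjusted p = 9.21e-06). The rise was close to the threshold of 3-fold, and it fell under it without parental replicate 1 (1.47), without mutant replicate 2 (1.56), with DESeq2 (1.55) and with offsets (0.23; edgeR adjusted p = 0.120). ITGB4 encodes β4, the hemidesmosome chain that pairs with α6 alone. It was at 639.8, 426.7 and 489.5 CPM in parental and 607.9, 566.5 and 697.01 CPM in mutant libraries, which overlapped (log2 change 0.27, 95% interval -0.08 to 0.61; edgeR adjusted p = 0.135). The ratio of ITGB4 to ITGB1 per base of length was 1.72 to 4.54 in parental and 0.780 to 1.48 in mutant libraries. This ratio is not free of base composition, since ITGB4 has a GC content of 63.6% and ITGB1 of 39.2%. With the offsets ITGB4 rose by 0.89 on the log2 scale (edgeR adjusted p = 3.08e-06), more than ITGB1 (0.23). With library totals ITGB4 rose by 1.19 (edgeR adjusted p = 6.51e-05). Summed over the family, the level per length was 209.1 ± 34.03 CPM per kilobase for α and 175.1 ± 20.04 for β genes in parental cells, and 231.7 ± 1.36 and 268.1 ± 9.37 in mutant cells (SD, n = 3).

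The β chains that pair with αV are known as alternative receptors for vitronectin, fibronectin and latent TGF-β, and 3 of the 4 were up-regulated from low levels. ITGB8, whose product binds latent TGF-β without a strong link to actin, was at 0.626, 0.267 and 0.410 CPM in parental and 9.59, 9.998 and 6.77 CPM in mutant libraries. Every mutant library was far above the highest parental one, and the log2 fold change was 4.29 ± 0.32 (SE; edgeR adjusted p = 7.25e-08). ITGB6 encodes the epithelial β6 chain and was at 0.531, 1.09 and 0.925 CPM in parental and 3.35, 3.20 and 1.85 CPM in mutant libraries. The log2 fold change of 1.73 ± 0.36 (SE; edgeR adjusted p = 6.36e-04) was 1.47 without parental replicate 1 and -0.0005 with length and GC offsets, which end the call. ITGB3, the platelet and endothelial β3 chain, had 4, 0 and 0 counts in parental and 23, 20 and 12.8 counts in mutant libraries. Its log2 fold change of 2.68 (95% interval 1.01 to 4.36; edgeR adjusted p = 0.00607) rests on few counts, ended in 5 of the 6 fits that leave out a library, and was not called by DESeq2. ITGB5, the common αV partner of adherent cells, was at 277.1, 179.7 and 249.9 CPM in parental and 236.7, 225.9 and 254.6 CPM in mutant libraries (log2 change 0.02, 95% interval -0.32 to 0.36), and its sign turned with DESeq2. ITGB5 remained 45.7 to 76.0 times above ITGB8 per base of length in mutant libraries. The leukocyte chains ITGB2 and ITGB7 lay between 0.218 and 1.34 CPM in all libraries, and neither passed the p threshold.

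The promoters of the αV partners ITGB6 and ITGB8 and of FERMT2 are shown because the 3 genes were called in the same direction and differ widely in base composition there. Each runs from 250 bases before to 50 bases after the start of the gene, on the strand of the gene, and comes from RefSeq (GRCh38.p14). Capitals mark the GC box GGGCGG or its reverse complement CCGCCC, where overlapping matches run together. The ITGB6 window (chr2:160200223-160200522, minus strand) has a GC content of 31.7%, no CpG and no GC box.
ITGB6: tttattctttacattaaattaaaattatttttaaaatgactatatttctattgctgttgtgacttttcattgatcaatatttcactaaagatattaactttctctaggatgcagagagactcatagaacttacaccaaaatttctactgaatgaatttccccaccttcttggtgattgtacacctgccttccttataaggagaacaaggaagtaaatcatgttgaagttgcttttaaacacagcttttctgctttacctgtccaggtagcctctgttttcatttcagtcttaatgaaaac
The ITGB8 window (chr7:20330650-20330949, plus strand) has a GC content of 71.7%, 28 CpG and 2 GC boxes.
ITGB8: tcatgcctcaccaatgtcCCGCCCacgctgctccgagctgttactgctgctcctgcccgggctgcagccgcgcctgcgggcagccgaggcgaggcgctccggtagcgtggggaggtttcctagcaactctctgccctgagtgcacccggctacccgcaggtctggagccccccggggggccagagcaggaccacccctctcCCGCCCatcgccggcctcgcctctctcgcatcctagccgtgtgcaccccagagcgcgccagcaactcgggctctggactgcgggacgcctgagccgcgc
The FERMT2 window (chr14:52951001-52951300, minus strand) has a GC content of 82.0%, 43 CpG and 8 GC boxes.
FERMT2: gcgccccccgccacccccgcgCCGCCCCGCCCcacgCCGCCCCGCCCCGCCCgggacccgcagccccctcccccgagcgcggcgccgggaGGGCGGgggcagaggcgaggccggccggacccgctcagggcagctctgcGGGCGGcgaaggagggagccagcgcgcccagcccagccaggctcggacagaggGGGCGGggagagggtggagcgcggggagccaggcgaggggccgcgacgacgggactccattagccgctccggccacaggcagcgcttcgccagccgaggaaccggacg
Of the 31 genes, 22 were matched to a promoter here, and a missing match does not show that RefSeq lacks a promoter for the gene. Of the 22, 13 held a GC box on either strand in any of their promoters, and 5 of the 22 had alternative starts. Of all 35116 promoters of the same length, 45% held a GC box. That share is per promoter and not per gene, so it is no like-for-like background for the 13 genes. The median GC content of all promoters was 58.7% and the median number of CpG was 14. Among the 9 matched genes that were up-regulated, 6 held a GC box in any of their promoters. The up-regulated genes ITGB3 and PTK2 were not matched and are not in this count.

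Among the proteins that bind the β tail, FERMT2 and FERMT1 were higher in mutant cells and neither talin gene passed the p threshold, but with offsets FERMT1 was at 0.04 (edgeR adjusted p = 0.810) and TLN1 passed it at -0.76 (edgeR adjusted p = 3.80e-05). FERMT2 encodes kindlin-2, the kindlin of mesenchymal and many other adherent cells. It was at 0.93, 1.09 and 1.17 CPM in parental and 17.3, 15.9 and 13.1 CPM in mutant libraries. The replicates were tight in both groups, and the log2 fold change was 3.85 ± 0.24 (SE; edgeR adjusted p = 1.77e-08). FERMT1 encodes kindlin-1, the epithelial kindlin, and was at 12.02, 8.74 and 14.9 CPM in parental and 31.1, 30.4 and 35.8 CPM in mutant libraries (log2 change 1.44 ± 0.20; edgeR adjusted p = 1.87e-05), a rise of 2.72-fold. The ratio of FERMT1 to FERMT2 per base of length was 5.04 to 8.15 in parental and 1.13 to 1.73 in mutant libraries. FERMT3 (kindlin-3), best known from blood cells and not among the 31 genes, took 12.3% ± 1.87 of the summed kindlin level in parental and 49.05% ± 2.998 in mutant cells (SD, n = 3). TLN1, the main talin, was at 484.4, 242.9 and 357.7 CPM in parental and 251.9, 243.9 and 296.1 CPM in mutant libraries, with parental replicate 1 high (log2 change -0.45, 95% interval -0.90 to -0.01; edgeR adjusted p = 0.0550), and its sign turned with library totals. TLN2 was at 5.85, 2.55 and 5.18 CPM in parental and 6.38, 7.24 and 9.91 CPM in mutant libraries (log2 change 0.78 ± 0.29; edgeR adjusted p = 0.0239), and TLN1 made up 99.1% ± 0.14 and 97.9% ± 0.28 of the talin level.

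VCL and PTK2 rose among the proteins that carry force and signal. PTK2 encodes focal adhesion kinase, which is activated when integrins cluster. It was at 9.76, 18.6 and 21.8 CPM in parental and 68.95, 70.4 and 66.2 CPM in mutant libraries. The mutant replicates were nearly equal and parental replicate 1 was lowest, with a log2 fold change of 2.03 ± 0.23 (SE; edgeR adjusted p = 3.84e-06). VCL encodes vinculin, which reinforces the talin-actin link, and was at 72.9, 49.5 and 78.3 CPM in parental and 231.2, 229.8 and 242.4 CPM in mutant libraries (log2 fold change 1.81 ± 0.17; edgeR adjusted p = 4.72e-07). VCL overlaps AP3M1 on the other strand, whose mean count was 62.2 in parental and 1041 in mutant libraries. PXN, the scaffold paxillin, was at 200.9, 133.3 and 189.1 CPM in parental and 200.4, 209.5 and 233.1 CPM in mutant libraries (log2 change 0.30, 95% interval -0.04 to 0.64; edgeR adjusted p = 0.0977). With the length and GC offsets the log2 change of PXN was 1.49 (edgeR adjusted p = 1.36e-06), above PTK2 at 0.85 (edgeR adjusted p = 0.00251). In that fit VCL was at 0.31 and did not pass the p threshold (edgeR adjusted p = 0.0272).

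ILK and ZYX were the focal adhesion genes that passed the p threshold with lower levels in mutant cells, and PARVA did not pass it although its mutant libraries also lay below its parental ones. ILK encodes integrin-linked kinase, the pseudokinase that ties the β tail to parvin. It was at 207.9, 221.3 and 193.6 CPM in parental and 70.1, 66.0 and 75.8 CPM in mutant libraries. The groups were well apart, and the log2 change of -1.56 ± 0.13 (SE; edgeR adjusted p = 1.49e-07), a level 2.94-fold lower, was just short of the fold threshold, which it passed with DESeq2 (-1.68). ZYX encodes zyxin, an adaptor that gathers where adhesions and stress fibres are under tension, and was at 209.9, 198.8 and 177.0 CPM in parental and 87.7, 81.6 and 100.2 CPM in mutant libraries (log2 change -1.12 ± 0.13; edgeR adjusted p = 5.06e-06). PARVA, the ILK partner α-parvin, was at 36.7, 30.95 and 36.2 CPM in parental and 28.6, 29.04 and 29.2 CPM in mutant libraries (log2 change -0.26, 95% interval -0.57 to 0.05; edgeR adjusted p = 0.110), and its sign turned with library totals. With the offsets, ZYX turned to a rise of 0.72 on the log2 scale (edgeR adjusted p = 9.37e-06), ILK was at -0.19, and PARVA was at -1.46 (edgeR adjusted p = 8.69e-07). With library totals ZYX was at -0.19 and did not pass the p threshold (edgeR adjusted p = 0.153), and ILK was at -0.63 (edgeR adjusted p = 3.16e-04).

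**Figure D3:**
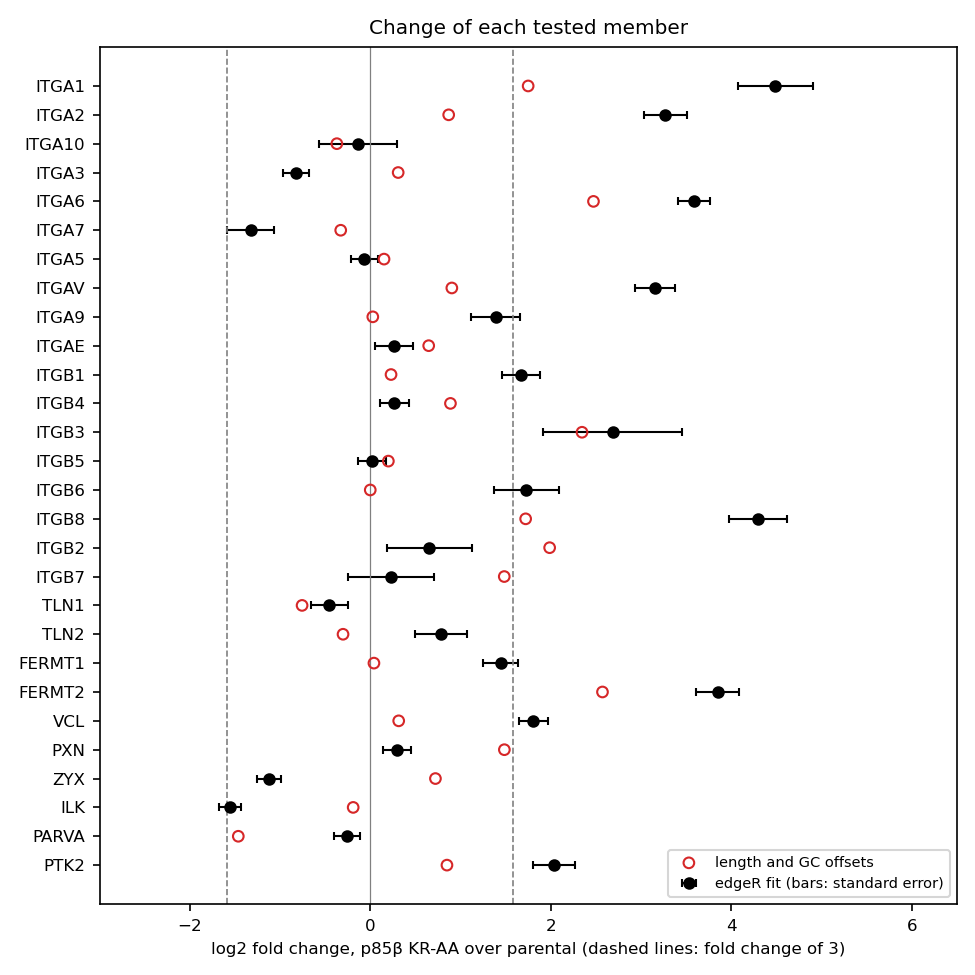
Log2 fold change (p85β KR-AA over parental, 3 libraries each) of the 28 tested genes, as filled points with SE bars, and the same from a fit with length and GC offsets, as open points. Dashed lines mark a fold change of 3. ITGA1, ITGA6, ITGB3, ITGB8 and FERMT2 lie past the line in both fits, although ITGB3 did not pass the p threshold with offsets. The points of ITGA3, ITGA5, ITGB6, TLN2 and ZYX change sides with the offsets, that of ITGB6 only to -0.0005. Of these, ITGA3 and ITGA5 also turned with library totals, which are not drawn.

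Gene length moved with the fold change over the whole table. The median log2 fold change was -1.14 among 1073 genes with a median length of 661 bases and 2.41 among 1071 genes with a median length of 9795 bases. All 11 up-regulated integrin and focal adhesion genes were longer than the median tested gene of 2805 bases, and 10 of them had a GC content below the median of 48.9%. Among genes longer than 4000 bases, 50.8% were up-regulated and 4% down-regulated. In a fit with offsets that level length and GC content in each library, 17.9% of all genes were up-regulated and 6.61% down-regulated. In that fit ITGA1 (log2 1.75), ITGA6 (2.47), ITGB8 (1.72) and FERMT2 (2.57) were still called. ITGA2 (0.87), ITGAV (0.90) and PTK2 (0.85) rose with an adjusted p under 0.01 but under 3-fold, and ITGB1 (0.23), ITGB3 (2.35), ITGB6 (-0.0005) and VCL (0.31) did not pass the p threshold. ITGB2, with 3 to 18 counts in parental libraries, was called with offsets alone (log2 1.99). The offsets take out whatever moves with length or GC content, be it technical or not, and which it is was not tested.

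**Figure D4:**
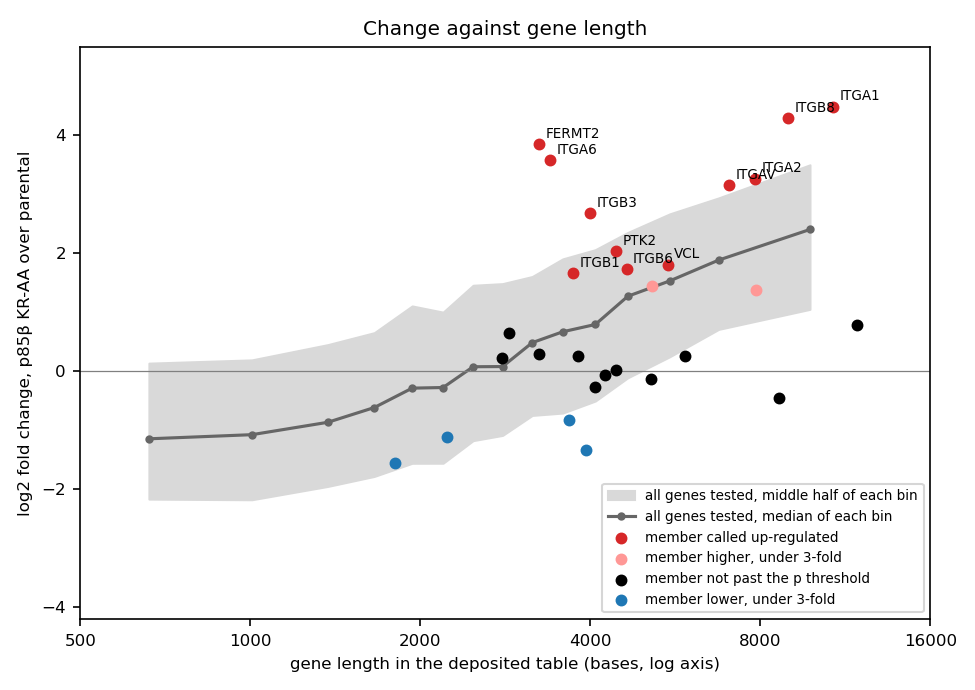
Log2 fold change against the gene length of the deposited table (log axis) for the 28 tested genes, over the median (line) and the middle 50% (band) of all tested genes in 15 bins of length. ITGA6, FERMT2, ITGB3, ITGB8 and ITGA1 lie above the band, ITGA2 and ITGAV lie near its upper edge, and ITGB6 and VCL lie inside it near the median line.

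The median log2 fold change of the 28 tested genes was 0.72, beside 0.32 for all genes tested. With library totals in place of TMM every log2 fold change moved up, the median of all genes by 0.92, and 14 of the 28 genes were up-regulated and 0 down-regulated, beside 7052 and 973 of all genes in place of 4597 and 2825. By role, 4 of 10 tested α genes, 4 of 8 β genes and 3 of 10 focal adhesion genes were up-regulated with TMM.

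Of 54 other adhesion genes, 48 were tested, of which 14 (29.2%) were up-regulated and 6 (12.5%) down-regulated, close to the 28.6% and 17.6% of all genes, with a median log2 change of 0.54. Among those whose log2 CPM averaged 3 or more, the largest rises were in SORBS2, an adaptor of the vinexin family (0.571 ± 0.285 to 19.3 ± 1.85 CPM, log2 5.10), FERMT3 (0.939 ± 0.314 to 26.6 ± 3.14 CPM, log2 4.80) and LPP, a zyxin relative (1.90 ± 1.02 to 33.1 ± 3.38 CPM, log2 4.09). FERMT3 had as few as 8 counts in a parental library and SORBS2 was near that level. Both passed the count filter through the mutant libraries, where they are high, so their calls are a description and add no support. SORBS3, which encodes vinexin itself, fell by 2.35 on the log2 scale, SHARPIN, an inhibitor of integrin activation, fell by 1.99 and AJUBA, a LIM protein of adhesions and cell junctions, fell by 1.88. With the offsets SORBS2 was at 3.72, FERMT3 at 6.40, LPP at 1.08, SORBS3 at -1.03, SHARPIN at 0.53 and AJUBA at -1.89, so LPP, SORBS3 and SHARPIN were no longer past 3-fold. Of 4 further hemidesmosome genes, DST rose from 2.57 ± 1.10 to 102.9 ± 20.6 CPM (SD, n = 3), PLEC and CD151 were lower under 3-fold, and COL17A1 did not pass the threshold.

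Genes for integrin ligands were tested in 30 of 34 cases, and 18 were up-regulated and 2 down-regulated (TGFB1 and ICAM2, of which ICAM2 was chosen with its values in view). These are 60.0% and 6.67% of the tested ligand genes, beside 28.6% and 17.6% of all genes and 50.8% and 4% of genes longer than 4000 bases, and the median length of the ligand genes was 6517 bases. The median log2 change was 2.44. At a minimum of 10 counts in each library, 10 ligand genes were up-regulated in place of 18, beside 2898 of the 12693 genes tested in that fit. FN1, the fibronectin gene and ligand of α5β1, went from 4.28 ± 0.62 to 4992 ± 408.2 CPM (SD, n = 3; log2 10.18; edgeR adjusted p = 8.71e-12). COL5A2, a chain of type V collagen, went from 0.475 ± 0.284 to 1488 ± 56.4 CPM, and SPP1, the osteopontin gene and a ligand of αV and α9 integrins, from at most 3 counts per parental library to 426.0 ± 105.3 CPM, at least 1949.8-fold higher than 3 counts in the parental library of smallest effective size. COL5A2 and SPP1 passed the count filter through the mutant libraries, where they are high, so their calls are a description and add no support. The same holds for any other of the 18 with too few parental counts for the filter. TGFB1, whose latent product is bound by αV receptors, fell by 2.15 on the log2 scale. With the offsets it was at -0.53 and with library totals at -1.22, both under 3-fold. By ligand class, 7 of 9 tested collagen genes, 6 of 11 laminin genes and 4 of 7 genes for fibronectin and other RGD ligands were up-regulated, beside the 28.6% of all genes. With the offsets 16 of the 30 tested ligand genes were up-regulated, beside 17.9% of all genes in that fit. The lists of other adhesion and ligand genes were not tested as sets.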

How the data were processed

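RNA from 3 DLD1 parental and 3 p85β KR-AA libraries was analysed. Per the submitters' processing notes the tools were HISAT2 2.1.0, RSEM 1.3.1 and DESeq2 1.24.0 and the build hg18, with no role or order given; the study describes trimming of paired-end reads. The values deposited by the authors are expected counts per Ensembl gene (estimated counts, not normalized) with a gene length column. They were rounded to whole numbers, since the design had assumed whole counts. Every sample column was used (0 left out). The source names of mutant replicates 2 and 3 number the second residue 479 and 480, where the titles have 478.

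Counts were tested with edgeR 4.0.16 under R 4.3.3 (genes kept by filterByExpr at minimum counts of 10 per library and 15 in all, TMM, quasi-likelihood F test, Benjamini-Hochberg adjustment over 16059 genes, no covariate). CPM are TMM-scaled, and levels per length are CPM per kilobase. Offsets for gene length and transcript GC content were robust splines with 5 degrees of freedom per library (MASS), and 15902 tested genes had a GC value. Symbols and positions came from GENCODE release 44 lifted to GRCh37 (56745 of 58884 identifiers matched), and may differ from the counting annotation. On simulated data with 193 genes changed 4-fold among 15667, 93.3% were recovered by edgeR and 92.2% by DESeq2, with 0 unchanged genes called. The simulated counts had the same dispersion for every gene, few changed genes and no trend with length or GC content. The error rate of the calls in the real data is thus not measured by them. Replicates of a group differed by more than counting noise (chi-square per degree of freedom 4.29 to 39.1).

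All 31 genes are named. Of the other adhesion and ligand lists, up to 3 called up and 3 called down are named, those with the largest log2 change and an average log2 CPM of at least 3. ICAM2 and CDH1 are named besides. The 4 further hemidesmosome genes are all named, and naming within the marker lists did not follow this rule. The genes and lists were chosen with earlier results of these data known. Alternatives were DESeq2 1.42.0, library totals, no filter, a minimum of 10 counts in each library, the replicate block, offsets, robust moderation, each library left out, other thresholds, and shares without division by length. SE is the absolute log2 change divided by the square root of the F statistic. Intervals are 95%, built on that SE with a t distribution, and counts allow no statement below about 3 counts (0.0818 to 0.218 CPM) per library.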

Additional observations from a re-analysis of the deposited data

How the results depend on the processing

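In place of 11 up-regulated genes among the 28 tested, between 8 and 14 were called under DESeq2, library totals, no filter, a minimum of 10 counts in each library, the replicate block, robust moderation, both other thresholds and each library left out (9 to 11). With length and GC offsets 5 were called, with or without the block, of which 4 are among the 11 without offsets, and the other is ITGB2. In place of 0 down-regulated genes there were 1 with DESeq2, 3 at a fold of 2 and adjusted p under 0.05, 4 at any fold and 0 to 1 with a library left out, in each single case ILK (-1.64 without parental replicate 3 and -1.60 without mutant replicate 3). Over all genes, up-regulated and down-regulated counts were 7052 and 973 with library totals, 2868 and 1061 with offsets, 2797 and 1040 with offsets and block, and 4289 and 5246 genes were down at the lower thresholds. At least 10 counts in every library left 2898 up-regulated genes and 10 ligand genes, and removes ITGA1, ITGB3, ITGB6 and ITGB8 from the 11. It adds FERMT1 (log2 1.64), which was also called without parental replicate 3 (1.60) and with library totals (2.35). Of the other adhesion genes, 6 were up and 1 down with offsets, with or without the block, 1 was down with library totals, and 11 at either lower threshold. Of the ligand genes, 0 were down with library totals and with offsets, with or without the block, and 4 at any fold.

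Signs turned as follows (log2). With library totals ITGA10 was 0.78, ITGA3 0.10, ITGA5 0.85, TLN1 0.46 and PARVA 0.66. With offsets ITGA3 was 0.31 (0.31 with the block), ITGA5 0.15 (0.15), ITGB6 -0.0005 (-0.0198), TLN2 -0.30 (-0.29) and ZYX 0.72 (0.72). ITGA5 was 0.13 at 10 counts in every library and ITGB5 -0.10 with DESeq2. Leaving out a library gave -0.54 to 0.0876 for ITGA10, -0.22 to 0.0598 for ITGA5, -0.17 to 0.14 for ITGB5 and -0.0221 to 0.75 for ITGB7, and none of these 4 passed the p threshold. The causes were not tested.

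Without division by length the collagen-binding share differed by 4.39 percentage points (2.12 with it), the laminin-binding share by -4.76 (-1.13), the α4/α9 share by 0.25 (0.13) and the RGD share by 0.09 (-1.18).

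The replicate numbers do not pair the libraries (same-number correlations of deviations from group means -0.20 to 0.18), and the replicate block left 11 genes up-regulated and 0 down-regulated (4626 and 2827 over all genes) with an infinite prior degree of freedom. Levels near 1 CPM (ITGA1, ITGB3, ITGB6, ITGB8 in parental cells) rest on 0 to 15 counts per library.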
